A study of Mus musculus with 9 samples.

Results

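The genes described here are those of MHC class II antigen presentation: H2-Aa, H2-Ab1 and H2-Eb1, which encode the classical class II chains, H2-DMa and H2-DMb1, which encode the peptide exchange factor H2-M, Cd74, which encodes the invariant chain, and Ciita, which encodes the class II transactivator. They were chosen by symbol, and the probe set of highest mean signal was to stand for each gene, but each of the 7 had a single probe set. The deposited comparison table names 5 of the 7. H2-Aa and H2-Ab1 were added from a second deposited table, because the comparison table calls their probe sets Psmb9 and H2-Ob, which are neighbouring genes. The probe set of H2-DMb1 is called H2-DMb2 in that second table, a near-identical neighbour, so signal from the 2 genes cannot be told apart. In all, 23515 genes were measured.

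Gene expression was profiled in the left ventricle of 9 male mice, with 1 Affymetrix mouse gene array per sample and 3 samples in each of 3 groups. The groups were LRAT -/- mice on a vitamin A deficient diet, LRAT -/- mice on a vitamin A sufficient diet, and wild-type mice on the sufficient diet. The deficient diet and the sufficient diet differed in 250000 U/kg of retinol palmitate, which the sufficient diet contained, and all mice were killed after 50 days on the diet. Neither strain, MHC haplotype nor age is given in the labels, no wild-type mouse of this set received the deficient diet, and nothing states whether mice of a group were littermates. Lrat encodes lecithin retinol acyltransferase, the enzyme that esterifies retinol for storage.

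MHC class II molecules present peptides from ingested proteins to CD4+ T cells. The alpha and beta chains assemble in the endoplasmic reticulum with the invariant chain, which is cut away by cathepsins in endosomes, and H2-M then exchanges its last fragment for a peptide. Constitutive expression is largely restricted to dendritic cells, macrophages and B cells, while interferon gamma can induce class II genes in other cells through Ciita. In the heart, resident macrophages and dendritic cells are the best known class II positive cells.

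Ciita does not bind DNA itself but docks on factors assembled at a conserved promoter module, in which an X box bound by the RFX complex precedes a Y box bound by NF-Y. To show this module in the genes described, the promoters were taken from RefSeq (GRCm38.p6, 250 bases before to 50 after a start). The table held 4 of the 7 genes, with 5 windows. An X box core, GNAAC, followed after 24 to 28 bases by a Y box, TGATTGG, was searched for on both strands; the 2 motifs do not overlap. The letters and the spacing were set with these promoters in view. The pair was found in 3 of the 5 windows, those of H2-Aa, H2-Eb1 and H2-DMb1, and in 56 of all 32851 windows of 300 bases (0.170%). Of the 4 windows of other class II genes it was found in 2, those of H2-Oa and H2-Eb2. The windows of H2-Ob and H2-DMb2 held both motifs but not at that spacing, and the 2 windows of H2-DMa lacked the Y box letters. In both H2-Ob and H2-DMb2 a GNAAC preceded TGATTGG, at fewer than 24 bases in H2-Ob and more than 28 in H2-DMb2. The capitals in the sequences mark the GNAAC core and the TGATTGG Y box.
H2-Aa, chr17:34287774-34288073, minus strand: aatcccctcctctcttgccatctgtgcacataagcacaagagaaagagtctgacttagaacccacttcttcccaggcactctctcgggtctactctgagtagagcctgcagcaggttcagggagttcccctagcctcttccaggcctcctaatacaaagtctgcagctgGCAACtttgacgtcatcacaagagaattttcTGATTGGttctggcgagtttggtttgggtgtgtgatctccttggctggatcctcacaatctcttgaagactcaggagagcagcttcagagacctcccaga
H2-Eb1, chr17:34305617-34305916, plus strand: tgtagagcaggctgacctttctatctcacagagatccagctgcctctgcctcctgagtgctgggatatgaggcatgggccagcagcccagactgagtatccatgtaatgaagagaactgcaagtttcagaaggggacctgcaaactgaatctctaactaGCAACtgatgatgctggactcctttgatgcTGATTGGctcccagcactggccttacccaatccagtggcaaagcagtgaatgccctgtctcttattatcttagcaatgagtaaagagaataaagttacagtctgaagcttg
H2-DMb1, chr17:34152941-34153240, plus strand: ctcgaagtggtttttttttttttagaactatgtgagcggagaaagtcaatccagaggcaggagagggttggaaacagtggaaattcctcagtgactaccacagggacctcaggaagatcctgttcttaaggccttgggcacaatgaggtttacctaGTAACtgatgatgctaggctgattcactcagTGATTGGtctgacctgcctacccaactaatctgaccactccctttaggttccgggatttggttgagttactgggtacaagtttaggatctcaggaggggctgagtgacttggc
The boxes were 26, 25 and 26 bases apart in H2-Aa, H2-Eb1 and H2-DMb1. The first base of the Y box lay at position -50 from the start in H2-Aa, -61 in H2-Eb1 and -63 in H2-DMb1. By itself TGATTGG was in 7.82% of all windows and GNAAC in 84.8%.

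Before the groups were compared, the arrays were set against their labels. Lrat signal was 6.78 to 6.96 on the arrays labelled LRAT -/- deficient and 7.29 to 7.38 on those labelled LRAT -/- sufficient, against 5.73 to 5.81 on the wild-type arrays (log2). Arrays labelled as knockouts therefore had more Lrat signal than wild-type arrays. Every value was below 7.53, however, the 95th percentile over 5222 negative control probe sets, called background here. Whether the probes lie outside the deleted part is unknown here, so Lrat does not settle the labels, and the genotypes below are those of the labels. The 8 cardiomyocyte markers of the ventricle were above background on all arrays, with 0 of 8 called in any comparison (2, 0 and 1 at an unadjusted p under 0.05). Log2 values correlated at 0.991 to 0.997 between arrays of a group and at 0.990 to 0.997 between groups. In the results that follow, 2 arrays stood apart from their groups: LRAT -/- sufficient replicate 1 for class II genes, and wild-type replicate 3 for interferon gamma induced genes.

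Signals of the classical chains were lower on average in both LRAT -/- groups than in wild type, with 1 LRAT -/- sufficient array at wild-type level. All values are log2 RMA signals, given in the order of replicates 1 to 3. H2-Aa, the alpha chain of the I-A molecule, had 11.47, 10.89 and 11.15 in LRAT -/- deficient hearts, and 11.68, 11.19 and 10.93 in LRAT -/- sufficient hearts, against 11.64, 11.92 and 11.75 in wild-type hearts. All deficient arrays lay below all wild-type arrays, while replicate 1 of the sufficient group lay within the wild-type range. H2-Ab1, the beta chain of I-A, had 10.87, 10.37 and 10.67 in LRAT -/- deficient hearts and 11.29, 10.53 and 10.40 in LRAT -/- sufficient hearts, against 11.21, 11.40 and 11.10 in wild-type hearts. The order was the same as for H2-Aa, with the sufficient group split into 1 high and 2 low arrays. H2-Eb1, the beta chain of I-E, had 10.75, 10.30 and 10.57 in LRAT -/- deficient hearts and 11.12, 10.36 and 10.30 in LRAT -/- sufficient hearts, against 11.05, 11.01 and 10.83 in wild-type hearts. For H2-Eb1 the sufficient replicate 1 was the highest of all 9 arrays.

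Cd74, the invariant chain that guards the groove and guides class II to endosomes, had 11.27, 10.63 and 10.98 in LRAT -/- deficient hearts and 11.66, 10.86 and 10.52 in LRAT -/- sufficient hearts, against 11.60, 11.60 and 11.52 in wild-type hearts. The wild-type arrays lay close together (11.57 ± 0.04, mean ± SD, n = 3), whereas the sufficient LRAT -/- arrays were spread widely (11.01 ± 0.59, n = 3). H2-DMa, the alpha chain of the peptide exchange factor, had 9.16, 8.94 and 8.74 in LRAT -/- deficient hearts and 9.19, 8.87 and 8.02 in LRAT -/- sufficient hearts, against 9.13, 9.34 and 9.04 in wild-type hearts. Its groups all overlapped, and sufficient replicate 3 was the lowest array. H2-DMb1, the beta chain of that factor, had 7.46, 7.02 and 7.43 in LRAT -/- deficient hearts and 7.65, 7.15 and 7.23 in LRAT -/- sufficient hearts, against 7.52, 7.56 and 7.65 in wild-type hearts. It exceeded background on 3 of 9 arrays and lay close to it on the others.

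Ciita, the master regulator of class II transcription, gave no signal above background. Its values were 6.219, 6.167 and 6.001 in LRAT -/- deficient hearts and 6.301, 6.236 and 6.219 in LRAT -/- sufficient hearts, against 6.315, 6.219 and 6.219 in wild-type hearts. All 9 were under background, and 4 arrays shared a single value, so no conclusion is drawn from differences in Ciita, or from their absence.

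**Figure D1:**
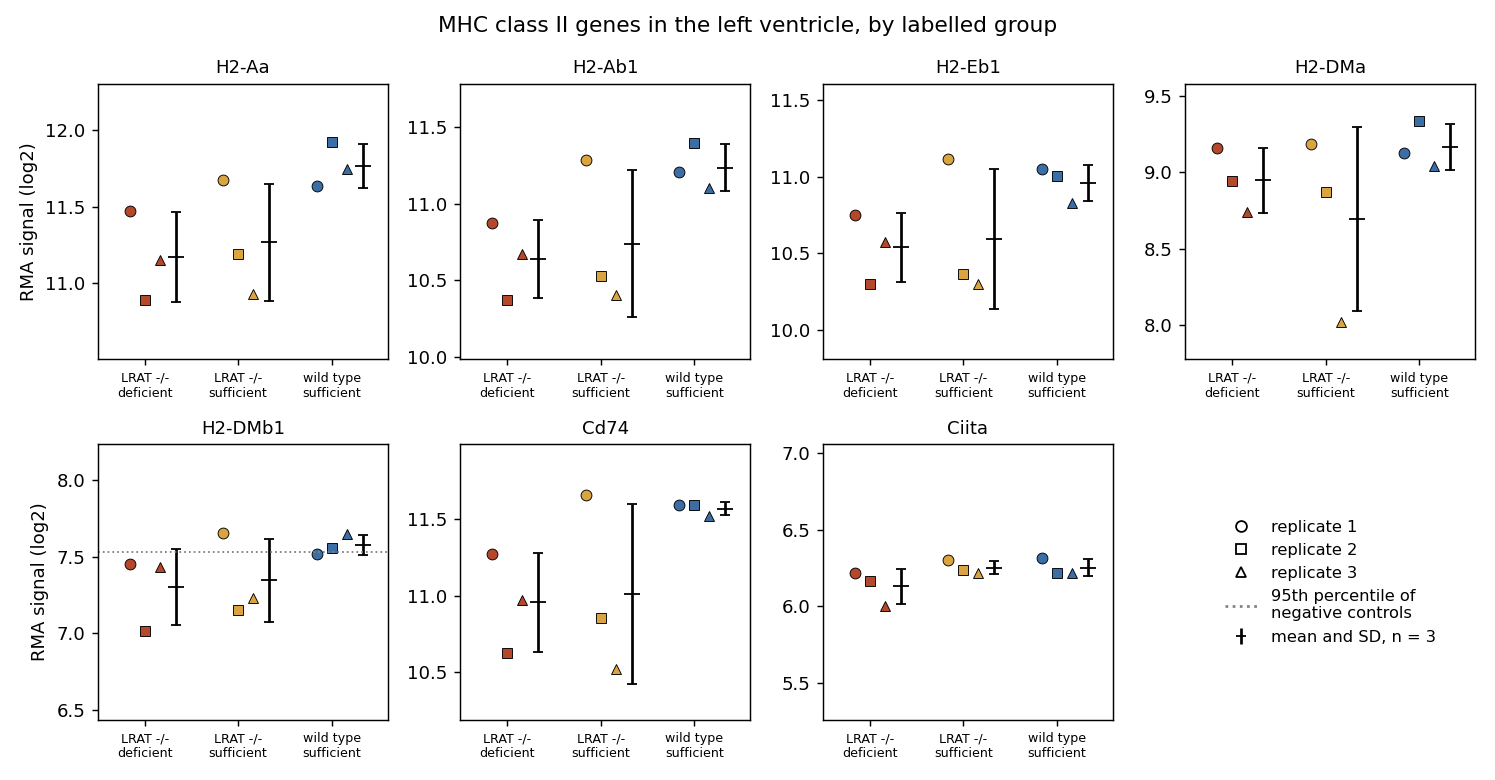
Log2 RMA signal of the 7 MHC class II genes (vertical axes, all of the same span) in 3 arrays per labelled group; bars give the mean and SD, and the dotted line is the background level of 7.53 where it falls within a panel. In H2-Aa, H2-Ab1, H2-Eb1, H2-DMb1 and Cd74 all LRAT -/- deficient arrays lie below all wild-type arrays, while LRAT -/- sufficient replicate 1 (circle) is at or above the lowest wild-type array.

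The first comparison set LRAT -/- against wild type on the sufficient diet, the contrast of genotype. The 6 class II genes other than Ciita were lower in LRAT -/- by point estimate, a sign shared by 50.5% of all genes, but 0 of 7 passed an adjusted p of 0.05 in limma over all genes, where 31 genes (0.132%) did. Mean signal of H2-Aa was 11.27 ± 0.38 in LRAT -/- and 11.77 ± 0.14 in wild type (SD, n = 3 each), a log2 difference of -0.50 ± 0.20 (SE; 95% interval -0.95 to -0.06), or 0.706 of wild type (limma adjusted p = 0.680). The log2 difference of Cd74 was -0.56 ± 0.26 (95% interval -1.14 to 0.03; limma adjusted p = 0.729), and that of H2-Ab1 was -0.50 ± 0.22 (adjusted p = 0.723). H2-DMa, H2-Eb1 and H2-DMb1 differed by -0.47, -0.37 and -0.23, and Ciita by 0.00. The median difference of the 7 genes was -0.47, beside -0.001 for all genes. At an unadjusted p under 0.05 there were 2 members, H2-Aa and H2-Ab1, both lower, where 6.88% of all genes met that criterion in either direction. These are the 2 members whose probe sets the comparison table calls by other symbols. None of the members it names met the criterion, Cd74 being nearest (limma unadjusted p = 0.059). In no member did the groups separate fully, against 4.27% of all genes whose LRAT -/- arrays all lay below wild type.

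The size of this difference varied with the LRAT -/- sufficient array left out. Replicate 1 was as high as wild type. Without that array the log2 differences were larger, at -0.88 for Cd74, -0.77 for H2-Ab1, -0.71 for H2-Aa and -0.63 for H2-Eb1. Still none passed the threshold (limma adjusted p = 0.191, 0.176, 0.244 and 0.198). That array was singled out by its class II values, so these larger differences are a description and no test. Without sufficient replicate 3, the H2-DMa difference was -0.14, and the median of the 7 genes was -0.22 in place of -0.47. The arrays carry no label that sets either apart.

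The second comparison set the deficient against the sufficient diet within LRAT -/-, the contrast of dietary vitamin A. Class II signals in the 2 groups overlapped in all 7 genes, where 4.95% of all genes were separated with the deficient arrays lower. By point estimate 6 of 7 were lower on the deficient diet, as were 50.7% of all genes. None of the 7 was called by limma, as were 0 of all 23515 genes (0%). At an unadjusted p under 0.05, 0 of 7 members and 1034 genes (4.4%) were counted. Mean H2-Aa signal was 11.17 ± 0.29 on the deficient diet and 11.27 ± 0.38 on the sufficient diet (SD, n = 3 each), a log2 difference of -0.10 with a 95% interval of -0.54 to 0.35. The interval for Cd74 was -0.64 to 0.53 around -0.05, and for H2-DMa -0.32 to 0.83 around 0.25, so differences as large as those between genotypes lie within the intervals for H2-Aa and Cd74. These intervals come from the fit without the replicate number as a block. By replicate number, the mean of the 7 genes was lower on the deficient array in replicates 1 and 2 and higher in replicate 3. The signs themselves were not stable. Without LRAT -/- sufficient replicate 1, the difference was positive in H2-Aa, H2-Ab1, H2-Eb1, H2-DMb1 and Cd74 (0.11 to 0.27), and without deficient replicate 2 it was also positive in these 5 genes (0.03 to 0.11).

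The third comparison set LRAT -/- on the deficient diet against wild type on the sufficient diet, in which genotype and diet cannot be told apart. It shares the wild-type arrays with the first and the deficient arrays with the second, so it is no independent support for either. All 7 differences were below 0, as were 50.3% of all genes, and 0 of 7 passed the limma threshold, where 30 genes (0.128%) did. Mean signal of Cd74 was 10.96 ± 0.32 in LRAT -/- deficient hearts and 11.57 ± 0.04 in wild-type hearts (SD, n = 3 each), a log2 difference of -0.61 ± 0.26 (SE; 95% interval -1.20 to -0.03; limma adjusted p = 0.542), or 0.654 of wild type. H2-Aa and H2-Ab1 each differed by -0.60 (limma adjusted p = 0.431 and 0.476), H2-Eb1 by -0.42, H2-DMb1 by -0.27, H2-DMa by -0.22 and Ciita by -0.12. The LRAT -/- deficient arrays were all below the wild-type arrays in 5 of 7 genes, where 6.36% of all genes separated in that direction. At an unadjusted p under 0.05 there were 3 members, H2-Aa, H2-Ab1 and Cd74, all lower, where 9% of all genes met that criterion in either direction. Of these, only Cd74 carries its symbol in the comparison table. Because the class II genes other than Ciita varied together from array to array, the 5 separated genes are not 5 separate observations.

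**Figure D2:**
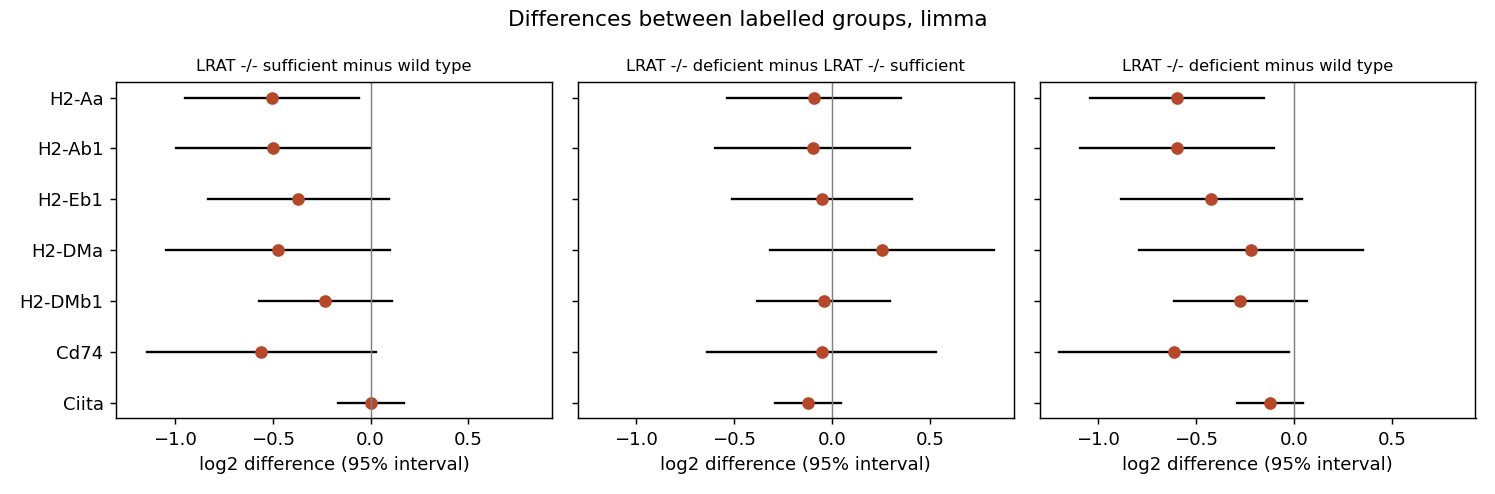
Log2 differences of the 7 genes (points) with 95% intervals from limma (lines) for the 3 comparisons, 3 arrays per group. Cd74, H2-Aa and H2-Ab1 are at -0.61 to -0.50 in both comparisons with wild type, while all intervals of deficient minus sufficient LRAT -/- cross 0.

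Over all 3 groups at once, 28 genes (0.119%) passed a moderated F test and none of the 7 did, the lowest adjusted p being 0.655 for H2-Aa. The order of group means was wild type, LRAT -/- sufficient, LRAT -/- deficient in H2-Aa, H2-Ab1, H2-Eb1, H2-DMb1 and Cd74. The 2 LRAT -/- means in that order differed by less than their SD in each of the 5 genes. The authors' deposited table calls the H2-Aa probe set Psmb9, and its values are given here under H2-Aa. Its ratio there was 0.728 for LRAT -/- sufficient over wild type (p = 0.0447 as deposited, exact method not stated) and 0.736 for LRAT -/- deficient over wild type. The authors' deposited table gives Cd74 ratios of 0.756 and 0.731 for the same pairs, and a false discovery rate over the 3 groups of 0.787 for H2-Aa and 0.849 for Cd74. For the diet within LRAT -/-, the ratios in the authors' deposited table were 0.919 to 1.11 for the 7 genes.

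The 6 genes other than Ciita varied together across the arrays. Over the 9 arrays, their 15 pairs had Pearson r of 0.499 to 0.978, with a median of 0.898, and the median was 0.847 for deviations from the group means, so the genes also varied together within groups. The 6 pairs with Ciita had r of 0.251 to 0.464. These are descriptions over arrays that share 1 normalization. With each gene centred on its mean over the arrays, the mean of the 7 genes was 0.07, -0.34 and -0.17 in LRAT -/- deficient hearts and 0.31, -0.22 and -0.44 in LRAT -/- sufficient hearts, against 0.25, 0.33 and 0.20 in wild-type hearts. Sufficient replicate 1 thus sat among the wild-type arrays, and the other 5 LRAT -/- arrays lay below them.

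The other class II chains gave little signal. H2-Ea, the alpha partner of H2-Eb1, read 4.52 on 7 of 9 arrays, near the negative control median of 4.55. Mice of the H2-b haplotype are known to carry a deletion at H2-Ea that prevents its expression. H2-Oa and H2-Ob, which encode the inhibitor of H2-M, and H2-Eb2 also stayed below background on all arrays, and 0 of these 4 genes were called in any comparison (0, 0 and 0 at an unadjusted p under 0.05).

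The factors that assemble with Ciita on the X and Y boxes had small differences between groups. Of 6 measured, 0 were called in any comparison by limma (1, 0 and 1 at an unadjusted p under 0.05 in the 3 comparisons in the order above), with median differences of 0.05, -0.06 and -0.01. Nfyc, a subunit of NF-Y, had 9.61 to 9.71 in LRAT -/- deficient hearts and 9.71 to 9.88 in LRAT -/- sufficient hearts, against 9.67 to 9.78 in wild-type hearts. Rfx5, which binds the X box, stayed below background on every array, at 6.45 to 6.73. In all, 3 of the 6 factors were below background on all arrays. The gene counted at an unadjusted p under 0.05 was Creb1, which was above background on all 9 arrays. It was higher than wild type by 0.19 in both LRAT -/- groups (limma adjusted p = 0.523 in the deficient and 0.687 in the sufficient group). All its LRAT -/- arrays lay above all its wild-type arrays.

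Endosomal proteins that process antigen and the invariant chain were lower by point estimate in 6 of 7 genes in both comparisons with wild type, but none was called by limma (2, 0 and 2 at an unadjusted p under 0.05). Ctsd, which encodes cathepsin D, had 11.65, 11.83 and 11.52 in LRAT -/- deficient hearts and 11.96, 11.62 and 11.80 in LRAT -/- sufficient hearts, against 12.22, 12.02 and 11.96 in wild-type hearts. Its log2 differences from wild type were -0.40 in the deficient and -0.28 in the sufficient group (limma adjusted p = 0.345 and 0.708). Lgmn, which encodes legumain, differed by -0.26 and -0.29, with all LRAT -/- arrays below all wild-type arrays in both groups. Ctss, cathepsin S, which makes the last cuts of the invariant chain in many antigen presenting cells, differed by -0.08 and -0.34 with overlapping groups. For co-stimulatory genes, 0 of 6 were called (1, 0 and 1 at an unadjusted p under 0.05), and Cd80 stayed below background on all arrays. Cd274, which encodes the inhibitory ligand PD-L1, was above background on only 2 of 9 arrays, wild-type replicates 1 and 2 (8.26 and 7.83). It was past the threshold in both comparisons with wild type once wild-type replicate 3 was left out. In that setting 0.485% of all genes were called for the sufficient and 1.24% for the deficient group. Wild-type replicate 3, at 7.04 for Cd274, was picked by its values, so this call is a description and no test.

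Interferon gamma is the best known inducer of class II, and its other target genes followed the class II genes in part across the arrays. Their mean had a Pearson r of 0.638 with the class II mean over the 9 arrays, given as a description. Any part of interferon gamma in the class II values was not tested. Gbp6, a guanylate binding protein, had 8.43, 7.96 and 8.25 in LRAT -/- deficient hearts and 8.30, 7.67 and 7.95 in LRAT -/- sufficient hearts, against 9.76, 9.71 and 8.51 in wild-type hearts. Iigp1, an immunity-related GTPase, had 8.37, 8.06 and 8.18 in LRAT -/- deficient hearts and 8.37, 7.57 and 8.18 in LRAT -/- sufficient hearts, against 9.28, 9.82 and 8.40 in wild-type hearts. In both, wild-type replicates 1 and 2 were high and wild-type replicate 3 was close to the LRAT -/- arrays, whereas for H2-Aa and Cd74 all 3 wild-type arrays were high. Of the 12 measured interferon gamma induced genes, 11 were lower in LRAT -/- sufficient hearts by point estimate, with a median log2 difference of -0.89, and 0 were called by limma (10 at an unadjusted p under 0.05). In LRAT -/- deficient hearts the median difference from wild type was -0.73, with 0 called (7 at an unadjusted p under 0.05). Between the diets within LRAT -/- it was 0.18, with 0 called (0 at an unadjusted p under 0.05). The list mean was 8.21, 7.98 and 8.14 in LRAT -/- deficient hearts, against 8.10, 7.73 and 8.01 in LRAT -/- sufficient hearts, so it was higher on the deficient array in all 3 pairs of one replicate number, and with the replicate block 0 of 12 were called (0 at an unadjusted p under 0.05). These counts rested on wild-type replicate 3. Without it, 9 of 12 were past the threshold in LRAT -/- sufficient hearts (0.485% of all genes called) and 9 of 12 in LRAT -/- deficient hearts (1.24% of all genes called), Gbp6 and Iigp1 among them in both, with median log2 differences of -1.29 and -1.05. That array was singled out by the values of these same genes, so the counts without it are a description and no test of them. Without the same array 0 of the 7 class II genes were called, and H2-Aa differed by -0.51 and -0.61 (limma adjusted p = 0.520 and 0.259). That setting was added after the values were seen.

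The same 2 wild-type arrays were high in class I genes. H2-Q7, a nonclassical class I chain, had 10.47, 10.15 and 10.41 in LRAT -/- deficient hearts and 10.67, 10.09 and 10.45 in LRAT -/- sufficient hearts, against 11.68, 11.44 and 10.27 in wild-type hearts. Psmb8, an immunoproteasome subunit whose gene lies between H2-DMa and H2-Aa, had 8.14, 8.03 and 8.20 in LRAT -/- deficient hearts and 8.09, 7.56 and 7.997 in LRAT -/- sufficient hearts, against 8.62, 8.62 and 8.14 in wild-type hearts. Class I genes of the H2-Q family are near-identical, so their probe sets may share signal. Of 20 class I pathway genes, 0 were called by limma in any comparison (9, 2 and 6 at an unadjusted p under 0.05). Without wild-type replicate 3, 5 were past the threshold in LRAT -/- sufficient hearts (0.485% of all genes) and 7 in LRAT -/- deficient hearts (1.24% of all genes), H2-Q7 in both, and these counts too come from leaving out an array picked by its values. Of the 9 genes of interferon gamma signalling 0 were called (3, 0 and 2 at an unadjusted p under 0.05), Ifng itself stayed below background, and Irf1, a transcription factor of the interferon response, differed from wild type by -0.33 in the deficient and -0.40 in the sufficient group (limma adjusted p = 0.609 and 0.709). Without wild-type replicate 3 the adjusted p of Irf1 was under the threshold in both groups, again with an array picked by its values left out.

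**Figure D3:**
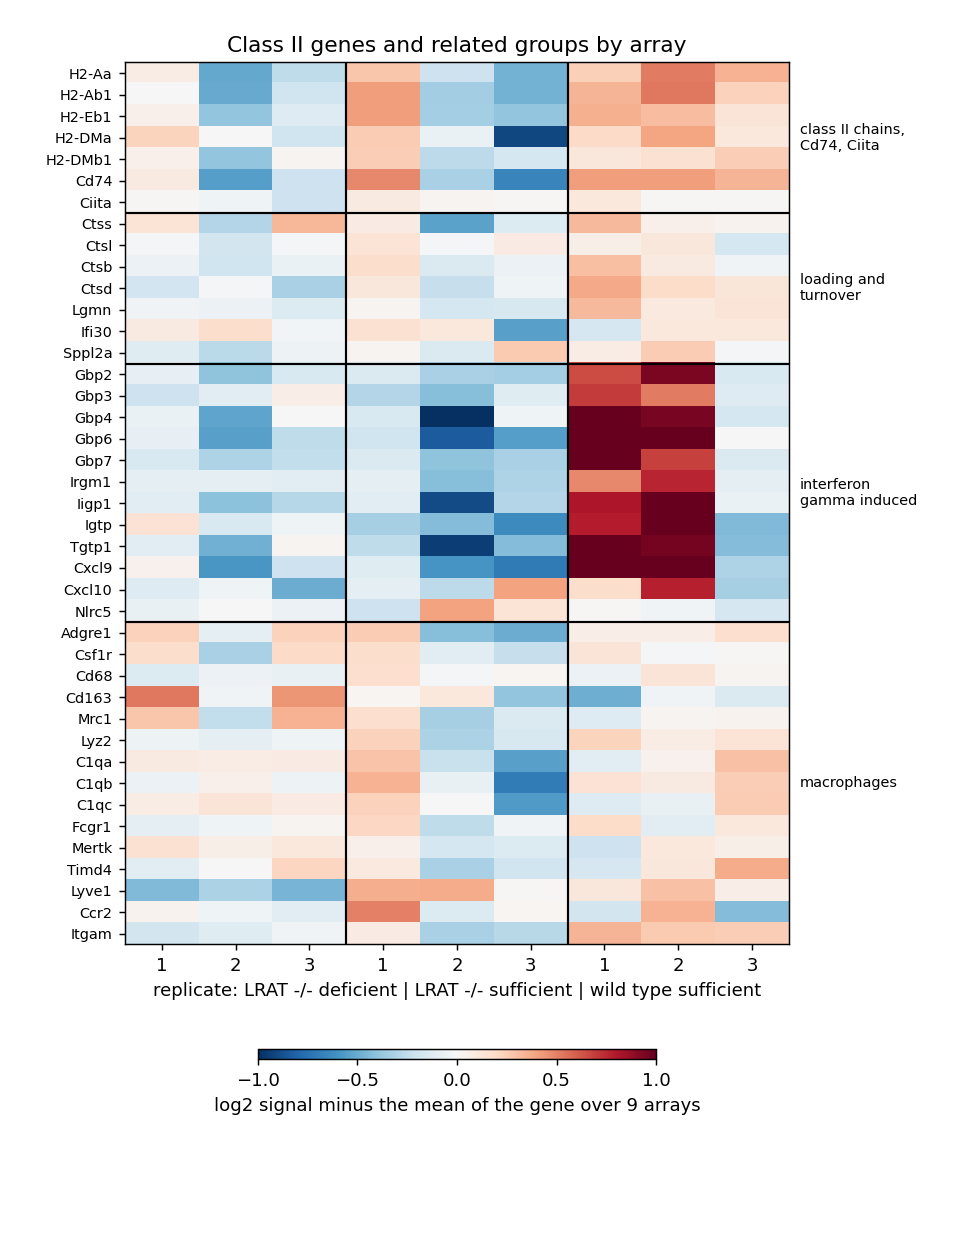
Log2 signal of each gene minus its mean over the 9 arrays (colour, limits -1 and 1; darker values may lie beyond), with arrays in columns by labelled group and genes in rows by list. The class II genes other than Ciita are high on all 3 wild-type arrays and on LRAT -/- sufficient replicate 1, whereas most interferon gamma induced genes are high on wild-type replicates 1 and 2.

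Markers of the cells that carry class II moved with it in part. In bulk tissue, fewer cells of a type and less RNA per cell cannot be told apart. Of 15 macrophage markers, 11 were above background on all arrays, and their mean signal ran from 9.38 to 9.51 in LRAT -/- deficient hearts and from 9.19 to 9.66 in LRAT -/- sufficient hearts, against 9.43 to 9.55 in wild-type hearts. Sufficient replicate 1 was the highest array in this mean and sufficient replicate 3 the lowest. C1qb, a complement subunit made by tissue macrophages, had 11.46, 11.57 and 11.46 in LRAT -/- deficient hearts and 11.86, 11.44 and 10.81 in LRAT -/- sufficient hearts, against 11.66, 11.61 and 11.76 in wild-type hearts. No macrophage marker was called by limma in any comparison (1, 1 and 3 at an unadjusted p under 0.05), and the median differences of the list were -0.10, 0.12 and -0.03. Without LRAT -/- sufficient replicate 1, Itgam, an integrin chain of myeloid cells, was the 1 macrophage marker called lower in LRAT -/- sufficient hearts (limma adjusted p = 0.0478). With any array left out, at most 0.485% of all genes were called in that comparison. Itgam was above background on only 1 of 9 arrays. The array left out was picked by its class II values, so this call is a description and no test. In LRAT -/- deficient hearts, 4 of 15 macrophage markers lay wholly below wild type, against 6.36% of all genes: C1qb, Lyz2, Itgam and Lyve1. By point estimate, 8 of the 15 were lower and 7 were higher than wild type in this comparison. Cd163 was among the higher ones, with 8.52, 7.96 and 8.44 in LRAT -/- deficient hearts, against 7.51, 7.96 and 7.85 in wild-type hearts, with overlap. Lyve1, a hyaluronan receptor of lymphatic vessels and some tissue macrophages, had 10.19, 10.32 and 10.16 in LRAT -/- deficient hearts, against 10.75, 10.92 and 10.70 in wild-type hearts (log2 difference -0.57, limma adjusted p = 0.148). Its LRAT -/- sufficient values, 10.99, 11.01 and 10.64, all lay above the deficient ones. Lyz2, the lysozyme of myeloid cells, had 12.85, 12.81 and 12.86 in LRAT -/- deficient hearts, against 13.13, 12.98 and 13.05 in wild-type hearts. For LRAT -/- sufficient hearts they were 13.14, 12.59 and 12.75. Adgre1, a surface receptor typical of macrophages, had 9.41, 9.09 and 9.42 in LRAT -/- deficient hearts, against 9.25, 9.25 and 9.35 in wild-type hearts, with overlap. With 9.44, 8.76 and 8.69 in LRAT -/- sufficient hearts, replicate 1 was high and replicates 2 and 3 were low, as for class II. The part of macrophage number in the class II values was not tested.

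Dendritic cell and B cell markers were mostly at background: 8 of 11 and 6 of 7 were under it on all arrays. The defining dendritic cell markers Zbtb46 and Flt3 were among them. Mean signal of the dendritic cell list was 6.67 to 6.86 in LRAT -/- deficient hearts and 6.58 to 6.74 in LRAT -/- sufficient hearts, against 6.67 to 6.73 in wild-type hearts. That of the B cell list was 5.60 to 5.66 and 5.53 to 5.71 in the same LRAT -/- groups, against 5.64 to 6.02 in wild-type hearts. Of the dendritic cell list, Cd209a was the 1 gene above background on all arrays, and it was not lower in LRAT -/- hearts: 11.83, 12.08 and 11.86 in LRAT -/- deficient hearts and 11.98, 11.49 and 11.57 in LRAT -/- sufficient hearts, against 10.93, 11.27 and 11.85 in wild-type hearts. All 8 T and NK cell markers were below background on all arrays. No marker of dendritic, B, T or NK cells was called by limma in any comparison (at an unadjusted p under 0.05, dendritic 0, 0 and 1, B cell 3, 0 and 2, T and NK cell 0, 0 and 0). Endothelial markers, all above background, had mean signals of 9.33 to 9.51 in LRAT -/- deficient hearts and 9.41 to 9.72 in LRAT -/- sufficient hearts, against 9.48 to 10.02 in wild-type hearts, with 0 of 8 called (1, 0 and 5 at an unadjusted p under 0.05). Without wild-type replicate 3 the adjusted p of Tie1 was under the threshold in the deficient group, where 1.24% of all genes were called. That array was picked by its values, so the Tie1 call is a description and no test. Atrial markers, a sign of how the ventricle was cut, had 0 of 4 called (0, 0 and 1).

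**Figure D4:**
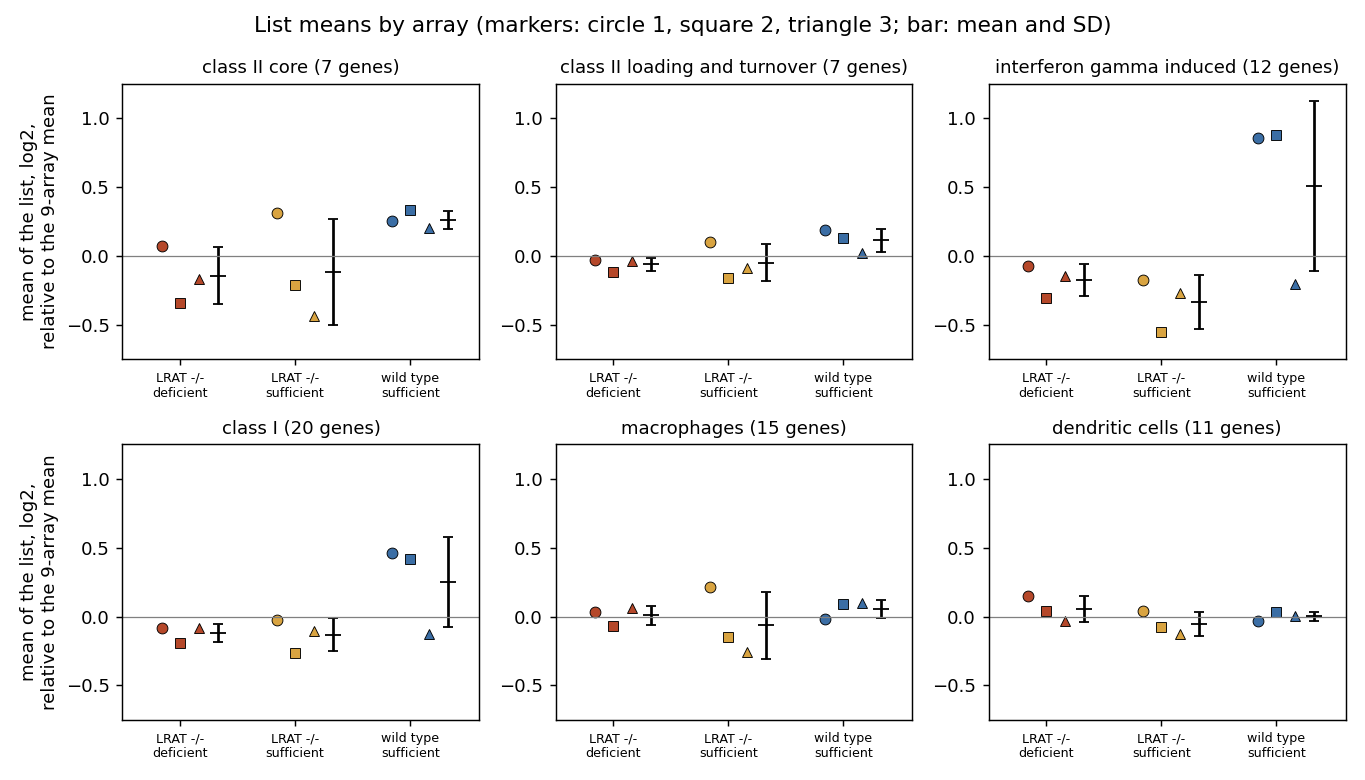
Mean log2 signal of 6 gene lists on each array relative to the mean of that list over the 9 arrays, by labelled group (circle, square and triangle are replicates 1, 2 and 3; bars are mean and SD, n = 3). Within LRAT -/- sufficient hearts, class II and macrophage means are both highest on replicate 1 and lowest on replicate 3, while interferon gamma induced and class I means are high on wild-type replicates 1 and 2.

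Among other genes of the MHC interval and its surroundings, 1 of 25 was called in each comparison with wild type, against 0.132% and 0.128% of all genes, and 0 between the diets (4, 2 and 2 at an unadjusted p under 0.05). Agpat1, which encodes an acyltransferase of phosphatidic acid synthesis, was not called but was higher by point estimate, with 10.17, 10.01 and 10.03 in LRAT -/- deficient hearts and 10.23, 10.29 and 10.01 in LRAT -/- sufficient hearts, against 9.70, 9.61 and 9.78 in wild-type hearts. All its LRAT -/- arrays lay above all its wild-type arrays, with log2 differences of 0.38 in the deficient and 0.48 in the sufficient group (limma adjusted p = 0.237 and 0.143). Glo1, which encodes the methylglyoxal-detoxifying enzyme glyoxalase 1 and lies on the same chromosome, had 10.31, 10.13 and 10.06 in LRAT -/- deficient hearts and 10.43, 10.03 and 10.18 in LRAT -/- sufficient hearts, against 11.08, 10.99 and 11.06 in wild-type hearts. It fell by 0.88 on the log2 scale in the deficient group and by 0.83 in the sufficient group relative to wild type (limma adjusted p = 0.0181 and 0.0296). All 6 LRAT -/- arrays lay below all wild-type arrays, LRAT -/- sufficient replicate 1 included, unlike the class II genes. With an array left out in turn, the call held in 4 of 9 cases for the deficient group (wild-type replicate 3 or any sufficient array) and in 2 of 9 for the sufficient group (wild-type replicate 3 or sufficient replicate 1). Glo1 copy number is known to differ between laboratory mouse strains. Whether the groups differ in strain background or haplotype, and any part of that in the class II values, was not tested.

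The genes whose signal followed the class II mean most closely were sought among 3046 genes with a mean of at least 6 and an SD of at least 0.2 on the log2 scale. The 10 closest had Pearson r of 0.889 to 0.921 over the 9 arrays, given as a measure of likeness with no test. They were Tmem140, Cysltr1, Ankrd44, Airn, H2-T10, Serpinb9, Slc11a1, Loxl1, Pld4 and Tgm2. Cysltr1, a leukotriene receptor, had 7.96, 7.78 and 7.86 in LRAT -/- deficient hearts and 8.23, 7.66 and 7.56 in LRAT -/- sufficient hearts, against 8.17, 8.11 and 8.33 in wild-type hearts. Slc11a1, a metal transporter of macrophage phagosomes, had 8.57, 8.48 and 8.59 in LRAT -/- deficient hearts and 8.75, 8.52 and 8.24 in LRAT -/- sufficient hearts, against 8.75, 8.81 and 8.94 in wild-type hearts. Both had a high sufficient replicate 1 beside 2 lower arrays. Ankrd44 kept the likeness best within groups, with r of 0.964 for deviations from the group means. None of the 10 was called in any comparison by limma.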

How the data were processed

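RNA of 9 left ventricles was hybridised to 1 array each. The per-array values deposited by the authors are on a log2 scale; per the submitters' processing notes they were made with RMA, and R 3.1.2 and genome build mm8 are named with no role. That scale was inferred from the values. A comparison table that the authors deposited gives a ratio and a p-value per pair of groups, with no method stated. Another deposited table was read for gene names only, and its 9 value columns were not used.

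Of 35556 probe sets, 26203 had a symbol, 651 of them from the second table, which gave 23515 genes, each by its probe set of highest mean. Groups were compared over all 9 arrays with limma 3.58.1 in R 4.3.3 (lmFit and eBayes, two-sided tests of 3 contrasts); p-values were adjusted by Benjamini-Hochberg across the 23515 genes and called at 0.05. The fit was tested on simulated data. Arrays are 3 per group, which limits the precision, and p-values measure the spread between these samples. Background means the 95th percentile of 5222 negative controls. Python 3.11.15 (numpy 2.4.6, pandas 2.3.3, matplotlib 3.10.9) served for summaries and figures.

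The genes and all lists were chosen with earlier results of these data known. Named were all 7 genes, Lrat, genes past 0.05 and otherwise up to 5 of lowest p per list and comparison, any gene of a list of 8 or fewer, and the 10 most alike; Ifng, and calls without an array, were named after their values were seen. Some items are not reported here. Same-numbered LRAT -/- arrays of the 2 diets deviated together (correlations of deviations from group means 0.220, 0.261 and 0.209). Those of LRAT -/- and wild type did not (-0.139 to 0.124). No label states that the numbers pair mice, and arrays of unlike number were not compared, so a pairing is not established. The main fit left the replicate number out, and it entered only as a block over all groups in an alternative. Alternatives were the replicate number as a block, the 2 groups alone, quantile normalization again, filters on dim genes, every probe set, the mean of a gene's probe sets, an intensity trend, each array left out, and, chosen after seeing the data, the 5 genes the comparison table names and each array left out and the block for the other lists.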

Additional observations from a re-analysis of the deposited data

How the results depend on the processing

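None of the 7 class II genes passed the threshold in any comparison under any of the 18 alternatives in which it was fitted. The filter at log2 7 removed Ciita, and the 5 genes of the comparison table leave out H2-Aa and H2-Ab1. The median differences from wild type stayed below 0 throughout: over the arrays left out in turn, -0.71 to -0.22 for LRAT -/- sufficient and -0.53 to -0.30 for LRAT -/- deficient hearts. The median for the diet ranged from -0.20 (without sufficient replicate 3) to 0.17 (without sufficient replicate 1). With the replicate block, 0 class II genes were called in each comparison, and 22, 0 and 26 of all genes in place of 31, 0 and 30; it changed no call in the class II genes or the other lists. Calls in other lists changed without wild-type replicate 3, and for Itgam and Glo1 also without other arrays, as given with them. Without wild-type replicate 3, Tapbp was called beside Glo1 among the MHC interval genes in LRAT -/- deficient hearts (2 of 25).

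With an array left out in turn, Ciita in LRAT -/- sufficient against wild type ranged from -0.023 to 0.033, and the diet differences from -0.26 to 0.11 for H2-Aa, -0.27 to 0.17 for H2-Ab1, -0.20 to 0.21 for H2-Eb1, -0.081 to 0.50 for H2-DMa, -0.14 to 0.11 for H2-DMb1 and -0.30 to 0.27 for Cd74. Signs turned in the diet comparison. Without LRAT -/- sufficient replicate 1 the differences were 0.11 for H2-Aa, 0.17 for H2-Ab1, 0.21 for H2-Eb1, 0.11 for H2-DMb1 and 0.27 for Cd74; without deficient replicate 2 they were 0.05, 0.03, 0.07, 0.10 and 0.11. H2-DMa turned to -0.081 without sufficient replicate 3. Ciita in LRAT -/- sufficient against wild type, 0.00, turned to -0.015 under quantile normalization again and without wild-type replicate 2 or 3, and to -0.023 without sufficient replicate 1. The cause was not tested.

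Counts over all genes moved more. For LRAT -/- sufficient against wild type, 31 became 5 with the 2 groups alone and 11 to 114 with an array left out (114 without wild-type replicate 3; 11 without sufficient replicate 2 or 3; 12 without wild-type replicate 1; 14 without any of the deficient arrays). For LRAT -/- deficient against wild type, 30 became 7 with the 2 groups alone and 9 to 291 with an array left out (291 without wild-type replicate 3; 9 without deficient replicate 3; 12 without deficient replicate 1 or 2; 13 without wild-type replicate 1). Using the 2 groups alone leaves fewer arrays in the fit; the other causes were not tested. Ciita and H2-DMb1 were limited by signal near background.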
